A study of Mus musculus with 12 samples.

Results

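The 10 transcription factor genes described here are the ETS family members Erg, Fli1, Ets1, Ets2, Elk3 and Etv6, the basic helix-loop-helix factors Tal1 and Lyl1, the bridging protein Lmo2 and the zinc finger factor Gata2. Each was read from the probe set that the array's annotation gives to that gene alone, and all 10 of 19937 genes with such a probe set were present. Each had 1 probe set, and all 10 passed the filter on dim genes (12430 genes tested), which asked for a value above the array's median on at least 3 of 12 arrays. Expression was measured in osteoblasts, the cells that form bone, and in endothelial cells, the lining of blood vessels, sorted from long bones of female mice of the immunodeficient NOD SCID strain. Tumor-bearing mice had 200000 MDA-MB231 scp1833 cells, from a human breast cancer line that colonises bone, injected into the heart, with about 2 weeks of growth in the bones. Tumor-free mice of the same strain were the controls, and their own treatment and the age of any mice are not stated in the labels. Osteoblasts were sorted as GFP-, TR119-, CD45-, SCA1-, CD31- and CD51+ cells, and endothelial cells as GFP-, TR119-, CD45-, SCA1+ and CD31+ cells. Each of the 4 groups (osteoblasts and endothelial cells, tumor-free and tumor-bearing) had 3 arrays labelled as biological replicates, and the sources used here do not say whether an array pooled several mice.

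ETS factors bind DNA through a shared domain that recognises a GGAA core, and endothelial cells depend on several of them, Erg and Fli1 above all, to keep vessel genes such as the cadherin Cdh5 active. Tal1 and Lyl1 pair with E proteins such as Tcf3, Tcf4 and Tcf12 on E-box sequences, and Lmo2 with Ldb1 joins them to a GATA factor in a shared complex. The same factors work in blood stem cells, megakaryocytes, mast cells and the blood-forming endothelium of the embryo, so blood cells left in a sort can also carry their RNA.

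Markers went with the labels. The mean log2 expression of 7 endothelial markers was 10.18 to 10.46 on the endothelial arrays and 4.75 to 5.92 on the osteoblast arrays, and the mean of 7 osteoblast markers was 8.82 to 10.26 on the osteoblast arrays and 5.66 to 6.18 on the endothelial arrays. Among tumor-free osteoblasts the replicate correlation was 0.875 to 0.932, against 0.957 to 0.986 in the other groups. Blood cell markers varied among the osteoblast arrays. The mean of 8 macrophage markers was 5.38, 8.35 and 7.80 on replicates 1 to 3 of tumor-free osteoblasts and 7.44, 7.00 and 5.19 on those of tumor-bearing mice, against 5.16 to 5.69 on the endothelial arrays. The levels are of whole sorted samples, in which fewer cells of a type and less RNA per cell cannot be told apart.

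Promoter sequence was at hand for 7 of the 10 genes, all but Fli1, Ets1 and Lmo2, as 11 windows of 300 bases (250 before to 50 after a gene start, RefSeq, build GRCm38.p6). Each window was searched on both strands for the ETS letters CCGGAA, the GATA letters AGATAA, the E-box letters CAGNTG and the AP-1 letters TGANTCA. The ETS letters were in 1 of the 11 windows, against 14.9% of 32851 windows of all genes. The GATA letters were in 2 windows, against 11.2% of all, the E-box letters in 4, against 51.4%, and the AP-1 letters in 0, against 7.81%. The windows of Erg, Tal1 and Lyl1 are shown because they held ETS or GATA letters, with all matched letters in capitals, read 5′ to 3′ along the gene's strand. The Erg window (chr16:95459299-95459598, minus strand) held a GATA match starting at position -103 and an E-box match at -217. Positions count the gene start as 1, and there is no position 0. The Tal1 window (chr4:115056176-115056475, plus strand) held a GATA match at -205 and an E-box match at 11. The Lyl1 window (chr8:84701207-84701506, plus strand) held ETS matches at -181 and -67 and an E-box match at -235. The fourth E-box window, of Gata2, held its match at position 18 and no other and is not shown. A match is a description of the letters only.
Erg: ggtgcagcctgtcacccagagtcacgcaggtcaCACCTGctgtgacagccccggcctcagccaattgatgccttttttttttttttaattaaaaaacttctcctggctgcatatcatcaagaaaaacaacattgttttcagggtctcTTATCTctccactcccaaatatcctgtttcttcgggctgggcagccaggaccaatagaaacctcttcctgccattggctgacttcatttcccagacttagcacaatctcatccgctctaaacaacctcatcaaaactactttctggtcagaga
Tal1: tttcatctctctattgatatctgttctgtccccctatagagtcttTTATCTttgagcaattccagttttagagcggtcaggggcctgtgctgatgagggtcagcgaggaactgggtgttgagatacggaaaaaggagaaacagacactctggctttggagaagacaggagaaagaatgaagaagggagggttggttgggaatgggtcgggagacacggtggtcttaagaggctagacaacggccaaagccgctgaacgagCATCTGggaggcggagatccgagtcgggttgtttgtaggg
Lyl1: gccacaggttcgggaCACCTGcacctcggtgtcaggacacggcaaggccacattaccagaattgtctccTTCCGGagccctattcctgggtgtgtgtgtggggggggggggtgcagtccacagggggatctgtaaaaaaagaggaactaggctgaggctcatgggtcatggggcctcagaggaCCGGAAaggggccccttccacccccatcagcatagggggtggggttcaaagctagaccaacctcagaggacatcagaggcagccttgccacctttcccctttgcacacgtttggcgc

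**Figure D1:**
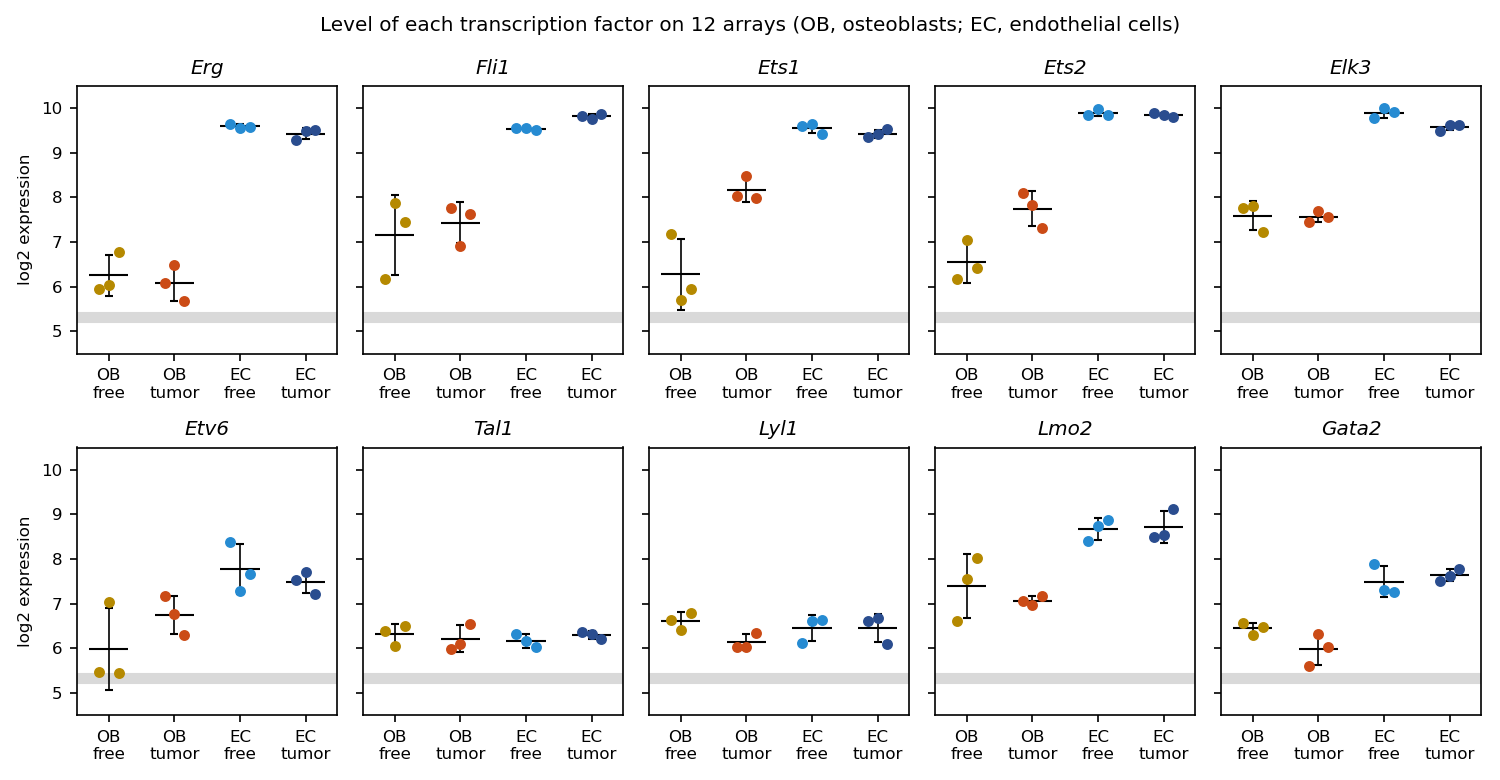
Log2 expression (y axis) of each of the 10 transcription factors on the 12 arrays, with 1 point per array in 4 groups on the x axis; bars give the group mean and SD (n = 3), and the grey band spans the array medians, 5.21 to 5.41. The endothelial points of Erg, Fli1, Ets1, Ets2 and Elk3 lie above 9.2, while Tal1 and Lyl1 lie between 5.9 and 6.8 in every group.

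Endothelial cells held more RNA than osteoblasts of all 6 ETS factors, Lmo2 and Gata2 in tumor-free mice, by 2.06-fold to 10.2-fold, while Tal1 and Lyl1 did not pass the test. With tests by limma and p-values adjusted over all 12430 genes, 8 of the 10 genes were higher in endothelial cells and 0 lower, against 18.2% of all genes tested that were higher. The arrays of the 8 genes did not overlap between the cell types, a separation that 23.1% of all genes showed in this direction. The median difference of the 10 genes was 2.05 on the log2 scale, against 0.03 over all genes. In tumor-bearing mice 7 of the 10 were higher in endothelial cells and 0 lower, against 8.13% of all genes, and 8 were separated without overlap, against 19.5%. The group means of the cell type comparisons share no arrays, but both tests use the same spread of each gene, pooled over all groups. The standard error was thus the same in both, such as 0.244 for Erg and 0.368 for Fli1, and the tests are not independent. The 7 genes are those of the first comparison without Etv6.

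Erg, which keeps endothelial cells in their mature state, read 5.94, 6.04 and 6.78 in tumor-free osteoblasts (log2 expression, replicates 1 to 3) and 6.09, 6.48 and 5.67 on those of tumor-bearing mice. On the endothelial arrays it read 9.64, 9.56 and 9.58 without tumor and 9.29, 9.49 and 9.51 with it. All 6 endothelial values stood above all 6 osteoblast values. The difference was 3.34 ± 0.24 (SE) in tumor-free mice, 10.1-fold with a 95% interval of 6.97 to 14.7 (adjusted p = 5.84e-06), and 3.35 ± 0.24 in tumor-bearing mice, 10.2-fold (adjusted p = 5.37e-06).

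Fli1, the close relative of Erg that is also active in megakaryocytes and other blood cells, read 6.16, 7.88 and 7.45 on the tumor-free osteoblast arrays and 7.76, 6.92 and 7.63 on the tumor-bearing ones. Endothelial arrays gave 9.56, 9.55 and 9.52 without tumor and 9.82, 9.76 and 9.88 with it. Its tumor-free osteoblast SD of 0.89 stood beside an endothelial SD of 0.02, and the low osteoblast array, replicate 1, was also the array with the lowest macrophage mean of that group. Among tumor-bearing osteoblasts the lowest macrophage mean, 5.19, was on replicate 3, with a Fli1 value of 7.63. The lowest Fli1 value there, 6.92, was on replicate 2, with a macrophage mean of 7.00. Fli1 was 5.21-fold higher in endothelial cells in both tumor-free mice (2.38 ± 0.37, adjusted p = 0.00108) and tumor-bearing mice (2.38 ± 0.37, adjusted p = 0.00117). The part of the macrophage level in the Fli1 values of osteoblasts was not tested.

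Ets1 and Ets2, the founding members of the family and known targets of growth factor signalling, had the widest spread of group means after Erg. Ets1 read 7.18, 5.70 and 5.95 on tumor-free and 8.02, 8.48 and 7.99 on tumor-bearing osteoblast arrays, with 9.60, 9.65 and 9.43 on tumor-free and 9.35, 9.42 and 9.53 on tumor-bearing endothelial arrays. For Ets2 the values were 6.17, 7.05 and 6.42, then 8.10, 7.83 and 7.32 in osteoblasts, and 9.84, 9.99 and 9.86, then 9.90, 9.85 and 9.81 in endothelial cells. For both genes the endothelial groups lay close together at the top, tumor-bearing osteoblasts in the middle and tumor-free osteoblasts lowest, with no overlap between these 3 levels. Ets1 was 9.72-fold higher in endothelial cells of tumor-free mice (3.28 ± 0.32, adjusted p = 4.37e-05) and 2.41-fold higher in those of tumor-bearing mice (1.27 ± 0.32, adjusted p = 0.0196). Ets2 was 10.2-fold higher in tumor-free mice (3.35 ± 0.24, adjusted p = 4.69e-06) and 4.30-fold higher in tumor-bearing mice (2.10 ± 0.24, adjusted p = 0.000143). The Ets1 call in tumor-bearing mice was lost without any 1 of 5 arrays. The adjusted p was 0.0613 without osteoblast replicate 1, 0.0697 without osteoblast replicate 3, and 0.0520, 0.0558 and 0.0702 without endothelial replicates 1, 2 and 3 of tumor-bearing mice.

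Elk3, a ternary complex factor that acts with serum response factor and can repress its targets, read 7.76, 7.81 and 7.22 on tumor-free and 7.44, 7.69 and 7.56 on tumor-bearing osteoblast arrays. On endothelial arrays it read 9.78, 10.00 and 9.93 without tumor and 9.50, 9.63 and 9.62 with it. Elk3 was 4.95-fold higher in endothelial cells of tumor-free mice (2.31 ± 0.17, adjusted p = 6.41e-06) and 4.05-fold higher in those of tumor-bearing mice (2.02 ± 0.17, adjusted p = 1.59e-05). Etv6, an ETS repressor needed for blood stem cells and developing vessels, varied more between replicates. Its osteoblast values were 5.47, 7.04 and 5.43 without tumor and 7.16, 6.77 and 6.30 with it, and its endothelial values were 8.37, 7.28 and 7.66, then 7.52, 7.71 and 7.22. Replicate 2 of tumor-free osteoblasts stood apart from the other arrays of its group and was the array with the highest macrophage mean, 8.35. Replicate 3, with a macrophage mean of 7.80, had the lowest Etv6 value of that group. The part of the macrophage level in the Etv6 values was not tested. Etv6 was 3.46-fold higher in endothelial cells of tumor-free mice (1.79 ± 0.43, adjusted p = 0.0113). In tumor-bearing mice the groups did not overlap, but the difference of 0.74 ± 0.43 did not pass the test (adjusted p = 0.332). With only the arrays of the tumor-free groups in the fit, the adjusted p of Etv6 was 0.0624, and without replicate 1 of both tumor-free groups it was 0.0852.

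Lmo2, the adaptor of the Tal1 complex, and Gata2, a GATA factor of endothelium and blood stem cells, were higher in endothelial cells by smaller factors. Lmo2 read 6.61, 7.55 and 8.02 in tumor-free and 7.05, 6.97 and 7.17 in tumor-bearing osteoblasts, and 8.41, 8.74 and 8.88, then 8.49, 8.53 and 9.13 in endothelial cells. Gata2 read 6.56, 6.30 and 6.47 in tumor-free and 5.59, 6.32 and 6.03 in tumor-bearing osteoblasts, and 7.89, 7.30 and 7.27, then 7.50, 7.62 and 7.77 in endothelial cells. Neither gene overlapped between the cell types, and the endothelial groups overlapped each other in both. The tumor-free difference was 2.44-fold for Lmo2 (1.28 ± 0.31, adjusted p = 0.0127) and 2.06-fold for Gata2 (1.05 ± 0.22, adjusted p = 0.00591). In tumor-bearing mice it was 3.15-fold for Lmo2 (1.65 ± 0.31, adjusted p = 0.00428) and 3.14-fold for Gata2 (1.65 ± 0.22, adjusted p = 0.000399). With only the tumor-free groups in the fit, the adjusted p of Lmo2 was 0.0645. Markers of blood cells that use these factors were measured on the same arrays. The mean of 6 megakaryocyte and platelet markers was 5.75 to 6.85 on endothelial arrays and 5.98 to 7.74 on osteoblast arrays. The mean of 5 red cell (erythroid) markers was 5.33 to 6.26 and 5.70 to 7.03. Both means were highest on tumor-bearing osteoblast replicate 3. The mean of 8 mast cell and basophil markers was 4.32 to 4.65 on all 12 arrays, below every array's median of all probe sets, and Cpa3, Fcer1a, Ms4a2, Mcpt8 and Prss34 did not pass the filter on dim genes. The mean of 8 blood stem and progenitor markers was 6.17 to 6.29 on endothelial arrays and 5.24 to 5.72 on osteoblast arrays. In tumor-free mice 3 of 6 tested were higher in endothelial cells, namely Cd34, Mecom and Kit, and 1 was lower, Hoxa9; endothelial cells are also known to express Cd34. The part of these blood cell lists in the values of Lmo2, Gata2 and the other factors was not tested.

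Tal1 and Lyl1, the helix-loop-helix factors of the complex, were the exceptions. Tal1 read 6.39, 6.05 and 6.50 in tumor-free and 5.99, 6.10 and 6.55 in tumor-bearing osteoblasts, and 6.32, 6.15 and 6.02, then 6.36, 6.32 and 6.21 in endothelial cells. Lyl1 read 6.63, 6.41 and 6.80, then 6.03, 6.02 and 6.34 in osteoblasts, and 6.12, 6.61 and 6.64, then 6.60, 6.67 and 6.09 in endothelial cells. All groups of Tal1 overlapped, and its group means spanned 0.15 on the log2 scale. The endothelial minus osteoblast difference of Tal1 was -0.15 in tumor-free mice, with a 95% interval of -0.55 to 0.25 (adjusted p = 0.535), and 0.08 in tumor-bearing mice, with an interval of -0.32 to 0.48 (adjusted p = 0.857). That of Lyl1 was -0.16, with an interval of -0.61 to 0.30 (adjusted p = 0.577), and 0.32, with an interval of -0.14 to 0.78 (adjusted p = 0.397). The upper bound of the Tal1 interval in tumor-bearing mice corresponds to 1.40-fold. All Tal1 values, 5.99 to 6.55, lay within the range of Erg on the osteoblast arrays, 5.67 to 6.78. How far the Tal1 and Lyl1 probe sets follow their RNA at such levels was not tested.

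**Figure D2:**
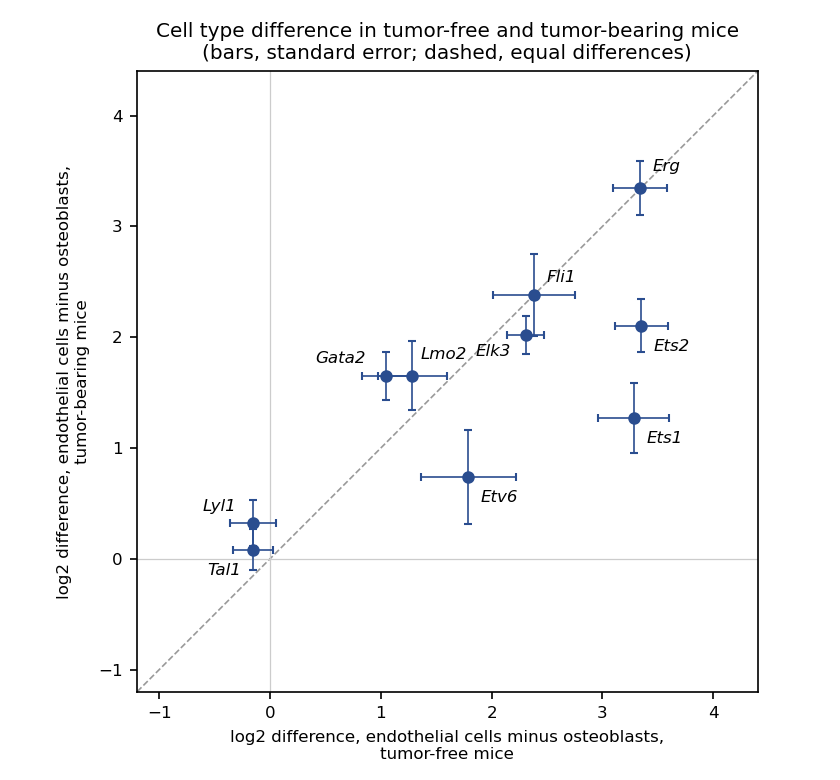
Endothelial minus osteoblast log2 difference of each gene in tumor-free mice (x axis) and in tumor-bearing mice (y axis), with bars for 1 standard error and a dashed line of equal differences. Erg (3.34 and 3.35) and Fli1 (2.38 and 2.38) sit on the line, Ets1 (3.28 and 1.27) and Ets2 (3.35 and 2.10) below it, and Tal1 and Lyl1 near 0.

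Spread within groups differed by cell type as well. The 10 genes had a median SD over 3 arrays of 0.46 in tumor-free and 0.33 in tumor-bearing osteoblasts, against 0.13 and 0.11 in endothelial cells. Over all genes tested the medians were 0.33, 0.22, 0.17 and 0.19. Gata2 and Lyl1 went the other way in tumor-free mice, with an SD of 0.35 and 0.29 in endothelial cells against 0.13 and 0.19 in osteoblasts. In tumor-bearing mice Lmo2 and Lyl1 did so, with 0.36 and 0.32 in endothelial cells against 0.10 and 0.18 in osteoblasts. The model pooled 1 spread over the 4 groups for each gene.

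With tumor in the bone, Ets1 and Ets2 rose in osteoblasts, by 3.70-fold and 2.30-fold, and no other gene of the 10 passed the test. These 2 of 10 compare with 4.01% of all genes that were higher in this comparison, and the 0 that were lower with 0.571%. Groups without overlap were found for 3 of the 10 genes, Ets1 and Ets2 above and Lyl1 below, close to the 24.7% of all genes that did so in either direction. The median difference of the 10 genes was -0.07, against 0.00 over all genes. Tumor-free osteoblasts had a mean Ets1 level of 6.28 ± 0.79 (SD, n = 3) and tumor-bearing ones 8.16 ± 0.27, a difference of 1.89 ± 0.32 (SE) with a 95% interval of 2.28-fold to 6.01-fold (adjusted p = 0.0116). For Ets2 the means were 6.55 ± 0.45 and 7.75 ± 0.39, a difference of 1.20 ± 0.24 with an interval of 1.60-fold to 3.31-fold (adjusted p = 0.0214). All 3 tumor-bearing arrays lay above all 3 tumor-free arrays for both genes.

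Both calls depended on how the spread was estimated. With only the 6 osteoblast arrays in the fit, the same differences had an adjusted p of 0.151 for Ets1 and 0.198 for Ets2, and 0 of 12430 genes passed. With 1 array weight per group the adjusted p was 0.0308 for Ets1 and 0.0631 for Ets2. Ets1 was called in 11 of 12 fits that left out 1 array and lost without tumor-bearing osteoblast replicate 2 (adjusted p = 0.0558). Ets2 was called in 9 of 12 and lost without tumor-bearing osteoblast replicate 1 (0.0672), tumor-bearing replicate 2 (0.0899) or tumor-free replicate 3 (0.0557), all adjusted p-values.

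Other marker lists differed between the same osteoblast arrays. The mean of 11 immediate early genes, whose RNA builds up quickly after a stimulus or cell handling, was 9.11, 8.59 and 7.95 on the tumor-free and 9.72, 9.82 and 9.68 on the tumor-bearing arrays, with 3 of 11 higher in the test (Egr2, Nr4a1 and Fosb) and 0 lower. The mean of 7 smooth muscle and pericyte markers was 6.70, 6.55 and 6.58 against 8.56, 8.31 and 7.34, with 3 of 7 higher (Acta2, Cnn1 and Tagln) and 0 lower. Neither list mean overlapped between the groups. Over the alternative settings the number called ran from 0 to 10 for the immediate early genes and from 0 to 5 for the smooth muscle markers. Of 7 tested macrophage markers 0 passed, with a median difference of -0.75, and of 7 tested neutrophil markers 0 passed, with a median of -1.39. The endothelial mean was 5.01 to 5.92 on tumor-free and 4.75 to 5.34 on tumor-bearing osteoblast arrays, with 0 of 7 endothelial markers called in either direction. The part of the immediate early and smooth muscle lists in the Ets1 and Ets2 rise was not tested.

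**Figure D3:**
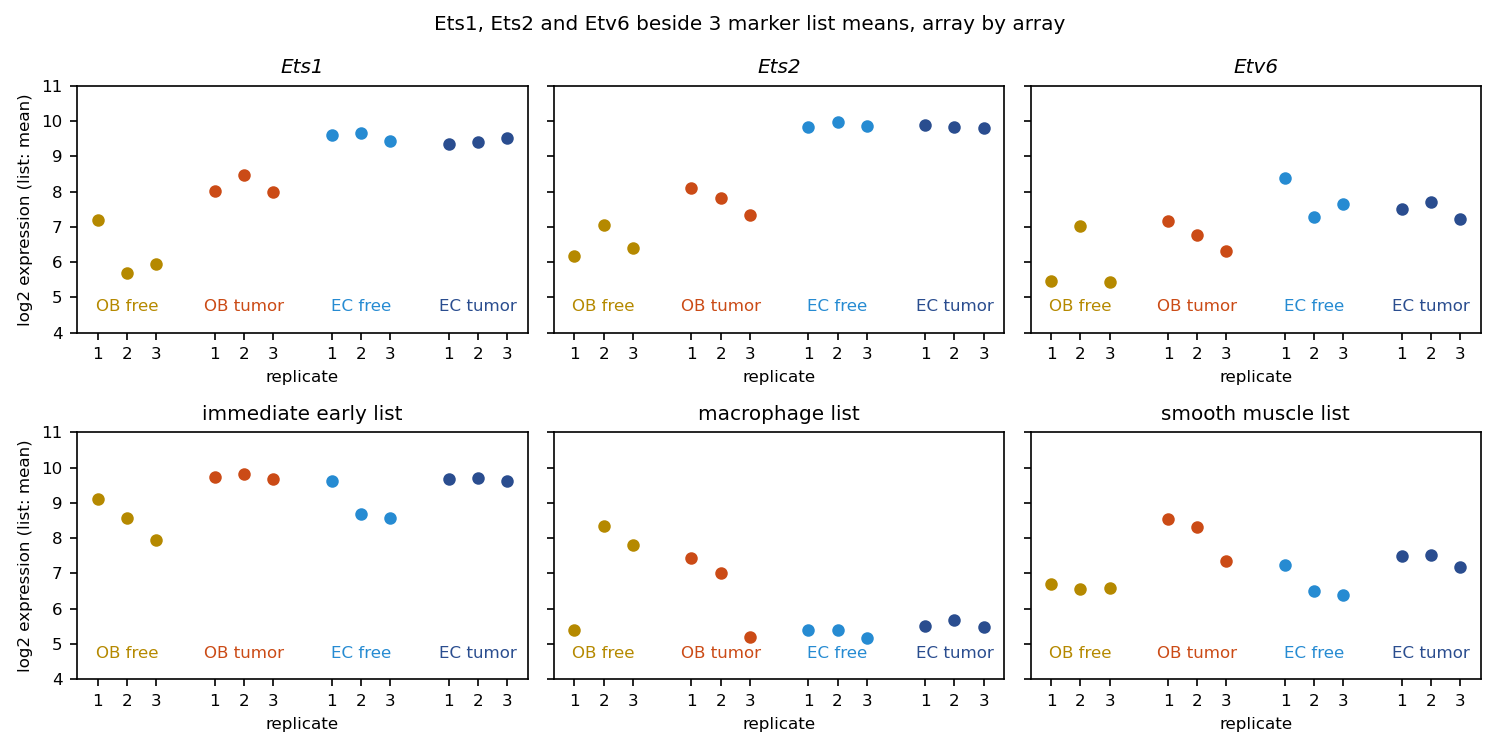
Log2 expression of Ets1, Ets2 and Etv6 (upper row) and the mean log2 expression of the immediate early, macrophage and smooth muscle lists (lower row) on each of the 12 arrays, with replicates 1 to 3 of each group along the x axis (OB, osteoblasts; EC, endothelial cells; free, tumor-free). In osteoblasts Ets1, Ets2 and the immediate early and smooth muscle means are higher on all 3 tumor-bearing arrays, whereas the macrophage mean is scattered within both groups.

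The remaining genes gave these values in osteoblasts. Lyl1 was lower on every tumor-bearing array than on every tumor-free one, with a difference of -0.48 ± 0.21 that did not pass after adjustment (adjusted p = 0.184). Gata2 differed by -0.46 ± 0.22 (adjusted p = 0.219), with replicate 2 of tumor-bearing mice inside the tumor-free range. Etv6 differed by 0.76 ± 0.43 (adjusted p = 0.294) and passed only without tumor-free replicate 2, at 2.45-fold (adjusted p = 0.0452), the array that stood apart. For Erg, Fli1, Elk3, Tal1 and Lmo2 the differences ran from -0.33 to 0.27, with adjusted p-values of 0.540 to 0.930 and overlapping groups.

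In endothelial cells none of the 10 genes passed the test between tumor-bearing and tumor-free mice. By limma 0 of 10 were called, also 0 at an unadjusted p under 0.05, against 0.0241% of all genes called, which is 3 genes, and 861 genes at an unadjusted p under 0.05. Groups did not overlap for 3 of the 10 genes, Fli1 above and Erg and Elk3 below, against 18.8% of all genes in either direction. Their differences were small. Fli1 was 0.28 higher (95% interval -0.53 to 1.09), Elk3 0.32 lower (-0.69 to 0.06 for the signed difference) and Erg 0.16 lower (-0.70 to 0.37). With only the 6 endothelial arrays in the fit the adjusted p was 0.343 for Fli1, 0.321 for Elk3 and 0.613 for Erg. The interval of Ets1 in endothelial cells was -0.82 to 0.57, beside 1.89 (1.19 to 2.59) in osteoblasts. For Ets2 it was -0.57 to 0.48, beside 1.20 (0.68 to 1.73). The test of the difference between the cell types, given below, did not pass for either gene. The immediate early mean was 9.63, 8.70 and 8.58 on the tumor-free endothelial arrays and 9.63 to 9.70 on the tumor-bearing ones, so replicate 1 of tumor-free mice was at the tumor-bearing level.

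**Figure D4:**
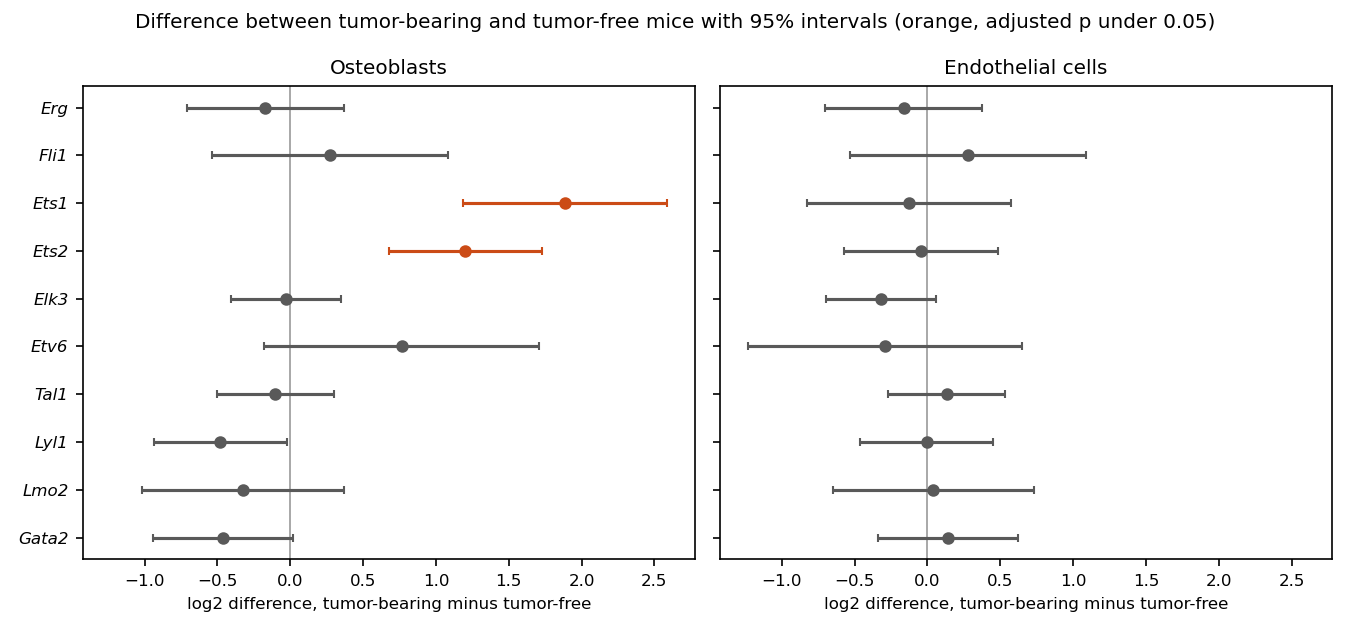
Log2 difference between tumor-bearing and tumor-free mice (x axis) for each gene in osteoblasts (left) and endothelial cells (right), with 95% intervals and an adjusted p under 0.05 in orange. Ets1 at 1.89 and Ets2 at 1.20 in osteoblasts are the coloured points, and all endothelial intervals include 0.

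Whether the tumor difference itself differed between the cell types was tested as an interaction. By limma 0 of 10 genes passed, against 0.209% of all genes. An unadjusted p under 0.05 was found for 2 of 10, Ets1 and Ets2, against 1990 of all 12430 genes. The endothelial minus osteoblast difference of tumor effects was -2.01 ± 0.45 for Ets1 (adjusted p = 0.0882) and -1.25 ± 0.34 for Ets2 (adjusted p = 0.144). It passed for Ets1 without tumor-free osteoblast replicate 1 (-2.47, adjusted p = 0.00125), the array with the highest Ets1 level of its group, and for Ets2 without tumor-free osteoblast replicate 2 (-1.50, adjusted p = 0.0346). Without replicate 1 of both tumor-free groups it was -2.45 for Ets1 (adjusted p = 0.00425). Etv6 gave -1.05 ± 0.60 (adjusted p = 0.404) and Gata2 0.60 ± 0.31 (adjusted p = 0.356), while Erg and Fli1 gave 0.01 and 0.00.

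Seen per gene, the calls and the levels of the 4 groups made these patterns. Ets1 and Ets2 ran from endothelial cells through tumor-bearing to tumor-free osteoblasts, and the neighbouring endothelial groups did not differ beyond their spread. Erg, Fli1, Elk3, Lmo2 and Gata2 had the endothelial groups above both osteoblast groups, with no call inside either cell type. The order of the means within a cell type differed among these genes. Etv6 had the same order as Ets1, but without the osteoblast call and without the cell type call in tumor-bearing mice. Tal1 and Lyl1 had no neighbouring groups that passed a test.

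The rest of the ETS family was less uniform between the cell types. Of 20 other ETS genes listed, 19 were measured and 15 tested. Among the ETS genes described here 6 of 6 were higher in endothelial cells of tumor-free mice, with a median difference of 2.83. Of the 15 others 4 were higher and 3 lower, with a median of 0.32, against 18.2% higher and 1584 of 12430 lower over all genes. Higher were Elf2 (1.70, adjusted p = 0.000252), Etv1 (1.97, adjusted p = 0.00263) and Gabpa (1.36, adjusted p = 0.0102), with Elk4. Lower were Spic, a factor of macrophages, with Spib and Elf3. On the endothelial arrays all 3 lay below the array medians (5.21 to 5.41), so they passed the filter through osteoblast arrays alone. The lower count ran from 0 to 3 when 1 array was left out. In tumor-bearing mice 1 of the 15 was higher and 1 lower, against 8.13% of all genes higher and 844 of 12430 lower. The higher one was Elk4 (0.90, adjusted p = 0.0368), called in 4 of 12 fits that left out 1 array. The higher count ran from 0 to 3 over the alternative settings. Elf3 was lower (-2.18, adjusted p = 5.87e-05) and was called in all 12. Spic stood at 7.04 ± 2.72 (SD) in tumor-free osteoblasts and 3.21 ± 0.08 in endothelial cells, and its osteoblast arrays were scattered as the macrophage markers were. Etv2, the factor that starts the vessel programme in the embryo, had group means of 4.90 to 5.34, and Spi1, the master factor of myeloid cells, of 4.31 to 5.17, and neither passed the filter on dim genes.

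In osteoblasts of tumor-bearing mice 2 of the 15 other ETS genes rose and 0 fell, against 4.01% and 0.571% of all genes. The median difference was 0.44. Elf2 read 6.40, 6.52 and 7.20 on tumor-free and 8.25, 8.01 and 8.10 on tumor-bearing osteoblast arrays, a 2.66-fold rise (1.41 ± 0.21, adjusted p = 0.00757). Elf3, an ETS factor best known from epithelium, read 5.41, 5.36 and 5.30 against 6.49, 7.54 and 6.89, a 3.07-fold rise (1.62 ± 0.22, adjusted p = 0.00542). Both were separated without overlap and were called in 12 of 12 fits that left out 1 array. But with only the osteoblast arrays in the fit the adjusted p was 0.121 and 0.118. Elf3 stood near the array medians (5.21 to 5.41) in tumor-free osteoblasts. Its tumor-bearing osteoblast arrays, where it was high, were enough for it to pass the filter on dim genes. In endothelial cells 0 of the 15 passed, and 0 did in the test of the difference between cell types.

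**Figure D5:**
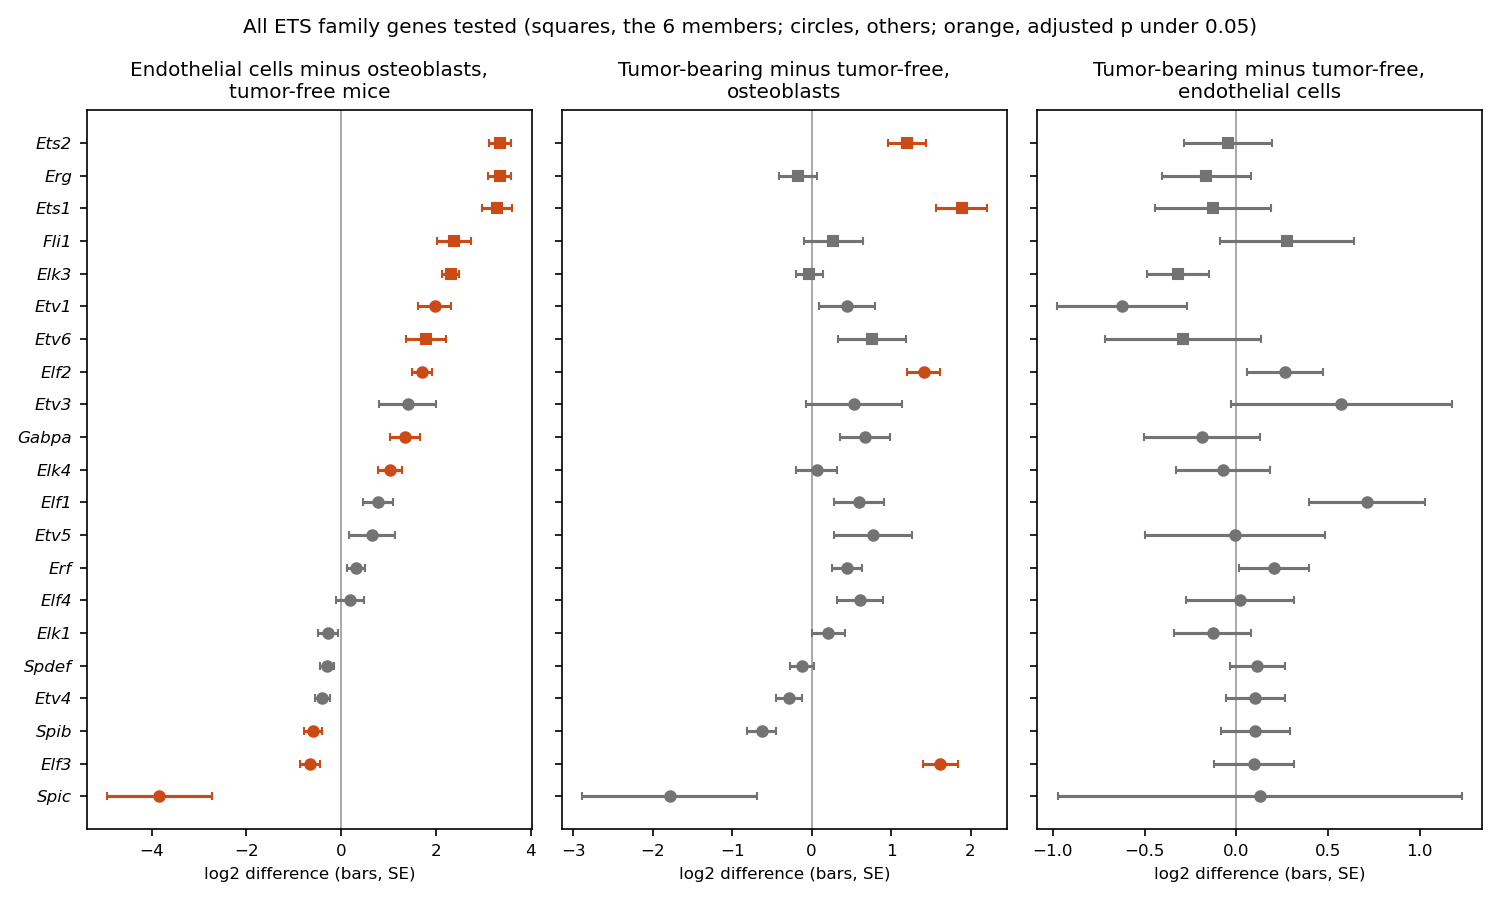
Log2 difference with its standard error for all 21 ETS genes tested, 6 described here as squares and 15 others as circles, between cell types in tumor-free mice (left) and between tumor-bearing and tumor-free mice in osteoblasts (middle) and endothelial cells (right); orange marks an adjusted p under 0.05, and the x axes differ in range. In the left panel the squares of Ets2, Erg and Ets1 lie highest, at 3.35, 3.34 and 3.28, and Spic lies lowest, at -3.84.

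The partners of the Tal1 complex gave a mixed picture. Of 19 genes listed 18 were tested. In tumor-free mice 4 were higher and 1 lower in endothelial cells, against 18.2% higher and 1584 of 12430 lower over all genes. The median difference was 0.18. Higher were Ssbp2, a cofactor of Ldb1 (1.40, adjusted p = 0.000176), and the E proteins Tcf4 (2.55, adjusted p = 0.000435) and Tcf12 (1.30, adjusted p = 0.00231), with Id3, an inhibitor of E proteins. Runx1, a factor of blood cells, was lower in endothelial cells, at 5.75 ± 0.71 against 7.56 ± 0.53 (-1.81, adjusted p = 0.00905). In tumor-bearing mice 7 of 18 were higher and 1 lower, against 8.13% of all genes higher and 844 of 12430 lower. Among the higher were Ssbp2, Gata3 (1.15, adjusted p = 0.00687) and Tcf12. Gata3 read 5.31, 5.61 and 4.86 on the tumor-bearing endothelial arrays, near the array medians of 5.21 to 5.41. All its osteoblast values were below those medians, so it passed the filter through endothelial arrays alone. Runx1 was the lower gene (-1.76, adjusted p = 0.0135), with an adjusted p of 0.0509 without tumor-bearing osteoblast replicate 1. Gata1, the GATA factor of red cells and megakaryocytes, stood at group means of 5.51 to 5.87 and passed no test. Between tumor-bearing and tumor-free mice 0 of 18 passed in either cell type. The count of partners that were higher ran from 3 to 7 in tumor-free and from 4 to 7 in tumor-bearing mice over the alternative settings.

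Vessel genes that these factors are known to regulate were also compared. Of 18 genes listed and tested, 15 were higher and 0 lower in endothelial cells of tumor-free mice, against 18.2% of all genes that were higher. In tumor-bearing mice 17 were higher and 0 lower, against 8.13% higher. The median differences were 3.33 and 3.79. The list holds all 7 endothelial markers with which the labels were checked above, so these counts are in part the same check. The 3 with the smallest p in tumor-free mice were the VEGF receptor Flt1 (5.28, adjusted p = 6.58e-09), the angiopoietin receptor Tek (5.79, adjusted p = 3.39e-08) and the TGF-beta co-receptor Eng (4.21, adjusted p = 2.44e-07). The sort used CD31, the product of Pecam1 in this list. In osteoblasts of tumor-bearing mice, where Ets1 and Ets2 rose, 0 of the 18 were higher and 1 was lower, Clec14a (-1.12, adjusted p = 0.0348), which was called in 3 of 12 fits that left out 1 array. In endothelial cells 0 of 18 passed.

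The genes with the profile nearest to each factor over the 12 arrays were found by the smallest root mean square difference after centring each gene on its mean, among 12429 genes. For Erg, whose own root mean square about its mean was 1.69, they were Ednrb (0.25), Egfl7 (0.28) and Stab1 (0.30). For Fli1 they were Lgals9 (0.22), Ece1 (0.31) and Ptprg (0.32), and for Elk3 Ackr1 (0.19), Dennd5b (0.21) and Sema6b (0.24). Ets1 lay nearest to Pnp (0.33), Itga6 (0.35) and Mest (0.38), and Ets2 to Gbp7 (0.30), Dusp6 (0.31) and Ralgapa2 (0.32). Etv6 lay nearest to Sorbs2 (0.32), Lmo2 to Cdc42bpb (0.25) and Gata2 to Ppp1r16b (0.22). For Tal1 and Lyl1, which varied by only 0.18 and 0.27 about their means, the nearest were Prap1 (0.11) and Thap3 (0.13). Among the 10 factors themselves the smallest differences were those of Tal1 and Lyl1, at 0.26, Lmo2 and Gata2, at 0.45, and Fli1 and Ets2, at 0.51. The measure is not scaled, so genes that vary little lie near each other whatever their profiles. Among all genes Lyl1 ranked only 2657 in nearness to Tal1, and Tal1 1260 to Lyl1. Gata2 ranked 215 to Lmo2 and Lmo2 267 to Gata2, while Ets2 ranked 75 to Fli1 and Fli1 56 to Ets2. The profiles share the arrays and the gap between the cell types.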

How the data were processed

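Per the labels' protocols, RNA from the sorted cells was extracted, amplified as cDNA and labelled with biotin. The table the authors deposited gives log2 expression (1.55 to 12.9) for 34760 probe sets and 12 arrays, made with affy per the submitters' processing notes. Its version, its background correction and how it normalized are steps not given in the sources used here. Groups and replicate numbers came from the sample titles. By the array's annotation, 21640 probe sets had 1 gene symbol, 1321 several and 11799 none or no entry, which gave 19937 genes; 954 had several probe sets, of which the one with the highest mean was used. A gene was tested if above the array median on at least 3 of 12 arrays (12430 genes, 62.3%).

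Tests used limma 3.58.1 in R 4.3.3, with 1 mean per group over 12 arrays, eBayes (8 residual and 2.89 prior degrees of freedom), two-sided p-values with a Benjamini-Hochberg adjustment over the genes tested and a threshold of 0.05. The labels call a group's arrays biological replicates but do not tie them to separate mice, so p-values reflect only the spread of these samples, which may be technical. Arrays limit the precision by their number; 0 of 66 array pairs held identical values. The 10 genes, the 3 pathway lists, the 12 marker lists and the naming rule were chosen with earlier results of these data known. Up to 3 genes with the smallest p per pathway list and comparison are named by that rule, along with Etv2, Spi1, Runx1 and Gata1; others, such as Elk4, Elf3, Spic, Spib, Id3 and Clec14a, were named after their values were seen. Over all genes tested, same-numbered arrays had a correlation of deviations over 0.1 in 1 of 18 pairs, and the numbers were not taken as pairs. In tumor-free mice, however, replicate 1 had the highest immediate early mean in both cell types (9.11 in osteoblasts and 9.63 in endothelial cells). Whether same-numbered arrays shared mice or handling was not tested. The steps were tested on simulated data. Alternatives are in the closing section.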

Additional observations from a re-analysis of the deposited data

How the results depend on the processing

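The 10 genes gave 1090 values under alternative settings, of which 1071 kept their direction and side of the threshold, 15 lost a call, 4 gained a call and 0 reversed; 39 changed sign while not called. The number of the 10 genes called between tumor-bearing and tumor-free osteoblasts, 2, was 1 with 1 array weight per group and 0 with only the osteoblast arrays in the fit, and ran from 0 to 3 when 1 array was left out. For the difference of tumor effects, 0, it was 1 without replicate 1 of both tumor-free groups and 0 to 1 when 1 array was left out. Leaving out 1 array gave 8 throughout in the tumor-free cell type comparison, 6 to 7 in the tumor-bearing one and 0 between endothelial groups. With the replicate number as a replicate block the counts were 8, 7, 2, 0 and 0, as without it, and it changed no call of the 10 genes. Over all genes the block gave 349 calls in osteoblasts against 570, 0 against 3 in endothelial cells and 0 against 26 in the difference of effects.

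Counts over all genes moved by more than 1.5 times as follows. In the tumor-free cell type comparison 3850 became 6564 without the filter, 2529 with weights, 1911 with only the groups compared and 2266 to 2534 without any tumor-free endothelial array. In osteoblasts 570 became 955 without the filter, 130 with weights, 0 with only the groups compared, 111 to 1573 without 1 array and 1421 without replicate 1 of both tumor-free groups. In endothelial cells 3 became 0 under quantile normalization, median centring, either other filter and the intensity trend, 7 with the mean over probe sets, 38 with weights, 0 to 61 without 1 array and 159 without replicate 1 of both tumor-free groups. In the difference of effects 26 became 14 under quantile normalization, 96 under median centring, 11 with the stricter filter, 41 with the mean over probe sets, 0 to 545 without 1 array and 378 without replicate 1 of both tumor-free groups. Tumor-free osteoblasts varied more than the other groups, 3 arrays per group set the precision, and the animals behind each array are not known.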
